A study of Mus musculus with 2 samples.

Results

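The axon-guidance ligands and receptors examined here are 40 genes, 22 ligands and 18 receptors, taken by gene symbol from the 32285 genes of both count tables. They comprised 13 semaphorins and 7 plexins, 2 netrins with 2 Unc5 receptors, 2 Slits with 3 Robo receptors, 3 ephrins with 4 Eph receptors, and 2 Flrt proteins with 2 latrophilin-type adhesion receptors of the Adgrl family. The list of symbols was drawn up with earlier results of these data known.

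These families were named for steering growing axons. Semaphorins bind plexins, often together with neuropilins, and weaken integrin adhesion and the actin cytoskeleton of the responding cell. Netrins bind Unc5 and Dcc-type receptors, Slits bind Robo receptors, ephrins and Eph receptors signal in both directions at cell contacts, and Flrt proteins bind both Unc5 receptors and latrophilins. Vessels use the same signals, for example ephrin-B2 on arterial and EphB4 on venous endothelium, and semaphorin signalling through plexin D1 in vessel patterning.

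The data were single-cell RNA-seq libraries of liver sinusoidal endothelial cells (LSECs), the fenestrated endothelium of the liver capillaries, from 2 groups with 1 library each and 3 mice pooled per library. Maf LSEC-KO mice carried the Clec4g-iCre transgene, whose promoter drives Cre recombinase in LSECs, and Maf fl/fl alleles, so that the transcription factor c-Maf is lost from LSECs from late fetal life on. Control mice, labelled WT, were Cre-negative littermates with Maf fl/fl or Maf fl/wt alleles, so floxed Maf alleles were shared by both groups. Age and sex of the pooled animals are not given in the sources used here, and the study used mice of both sexes and of more than one adult age. With 1 library per group no difference between the groups can be tested. All intervals below are 95% intervals that cover counting error only, and genotype, animal and library cannot be told apart.

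Levels are given in CPM, the UMIs of a gene (unique molecular identifiers, each standing for 1 captured transcript) scaled to a total of 1000000 UMIs, counted at the 3′ end of transcripts and therefore not scaled to transcript length. LSECs were the cells of endothelial clusters without a UMI of Vwf, which marks endothelium of larger vessels. They numbered 4092 in control, with a median of 8403 UMIs per cell, and 3209 in Maf LSEC-KO, with a median of 13883. Maf, the deleted gene, had 3472 CPM in control and 122 CPM in the Maf LSEC-KO cells. The endothelial gene Pecam1 had 713 and 779 CPM, while the LSEC genes Stab2 and Lyve1 were at 1636 and 724 CPM in control and at 179 and 397 CPM in Maf LSEC-KO, so the cells of the Maf LSEC-KO library were endothelial but low in an LSEC-defining marker. Of other cell types, 11 macrophage genes summed to 73.7 CPM in control and 122 CPM in Maf LSEC-KO LSECs, 12 stellate or mesenchymal genes to 261 and 120 CPM, and 10 hepatocyte genes to 143 and 73.5 CPM. Their part in the member values was not tested, except where values without such cells are given. The libraries shared 10 cell barcodes, 4 of them among LSECs.

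Promoters are shown for the 3 members that were lower in Maf LSEC-KO LSECs without a Maf UMI than in those that kept Maf UMIs (Plxnc1, Sema3d, Robo1), for Flrt2, which was higher in Maf LSEC-KO, and for Efnb1, 1 of 2 members whose promoter held the searched motif. The sequences are the 250 bases before a RefSeq start of transcription, 5′ to 3′ on the strand of the gene, on GRCm38.p6, which is the mm10 build of the files. The start used for Robo1 is an internal one, downstream of the first base of the annotated gene. They lie at chr10:94944846-94945095 (minus strand), chr5:12382916-12383165, chr16:72662899-72663148, chr12:95691976-95692225 and chrX:99135811-99136060 (plus strand). Capitals mark the word TGCTGAC, a part of the Maf recognition element, found on either strand.
Plxnc1: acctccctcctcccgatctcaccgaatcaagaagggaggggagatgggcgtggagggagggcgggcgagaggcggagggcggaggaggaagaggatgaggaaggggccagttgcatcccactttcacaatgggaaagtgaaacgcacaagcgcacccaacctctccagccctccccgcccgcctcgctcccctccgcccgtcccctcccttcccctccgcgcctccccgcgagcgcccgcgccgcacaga
Sema3d: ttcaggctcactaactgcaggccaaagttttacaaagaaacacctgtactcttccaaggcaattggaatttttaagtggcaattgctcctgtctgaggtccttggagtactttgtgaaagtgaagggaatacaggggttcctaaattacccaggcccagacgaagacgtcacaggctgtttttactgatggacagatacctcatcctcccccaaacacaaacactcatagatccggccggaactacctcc
Robo1: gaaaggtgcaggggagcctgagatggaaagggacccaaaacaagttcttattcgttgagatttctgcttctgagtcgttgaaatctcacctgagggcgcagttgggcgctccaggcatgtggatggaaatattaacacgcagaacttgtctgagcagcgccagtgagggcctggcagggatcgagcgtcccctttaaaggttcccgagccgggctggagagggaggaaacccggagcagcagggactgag
Flrt2: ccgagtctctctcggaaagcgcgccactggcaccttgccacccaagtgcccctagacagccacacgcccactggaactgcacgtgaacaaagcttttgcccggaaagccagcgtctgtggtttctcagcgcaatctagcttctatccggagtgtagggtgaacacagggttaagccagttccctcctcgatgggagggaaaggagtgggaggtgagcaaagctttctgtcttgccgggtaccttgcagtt
Efnb1: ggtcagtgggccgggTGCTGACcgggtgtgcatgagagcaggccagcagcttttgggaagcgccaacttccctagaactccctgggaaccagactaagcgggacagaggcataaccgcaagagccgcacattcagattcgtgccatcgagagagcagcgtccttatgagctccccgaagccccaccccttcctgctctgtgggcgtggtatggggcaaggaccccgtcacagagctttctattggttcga
Of the 35 members with a promoter in the table, Plxnb2 and Efnb1 held TGCTGAC on either strand, beside 4.31% of 27025 genes. The related word TGAGTCA, bound by AP-1 factors, was present before Sema4c and Sema6b, beside 5.16% of all genes. Neither word occurred in the 250 bases shown for Plxnc1, Sema3d, Robo1 and Flrt2. These matches describe letters in a short window and were not compared with binding data. The promoter of Plxnc1 held 22 CpG dinucleotides and a GC content of 68.8%, that of Sema3d 4 CpG and 46.8%.

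Between the LSEC populations 7 guidance genes differed by at least 2-fold, 3 of them receptors (Plxnc1, Robo1, Epha4) and 4 ligands (Sema3d, Sema4b, Ntn1, Flrt2). Of the 40 members, 27 reached 5 CPM in control or Maf LSEC-KO LSECs and were compared, and the other 13 stayed under it in both, with between 1 and 102 UMIs in a library. At least 2-fold higher in Maf LSEC-KO were 2 members, Flrt2 and Epha4, beside 11.5% of the 10461 genes compared. At least 2-fold lower were 5 members, Sema3d, Plxnc1, Ntn1, Robo1 and Sema4b, beside 4.9% of all genes. The median log2 ratio of Maf LSEC-KO over control was -0.04 over the members and 0.14 over all genes.

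**Figure D1:**
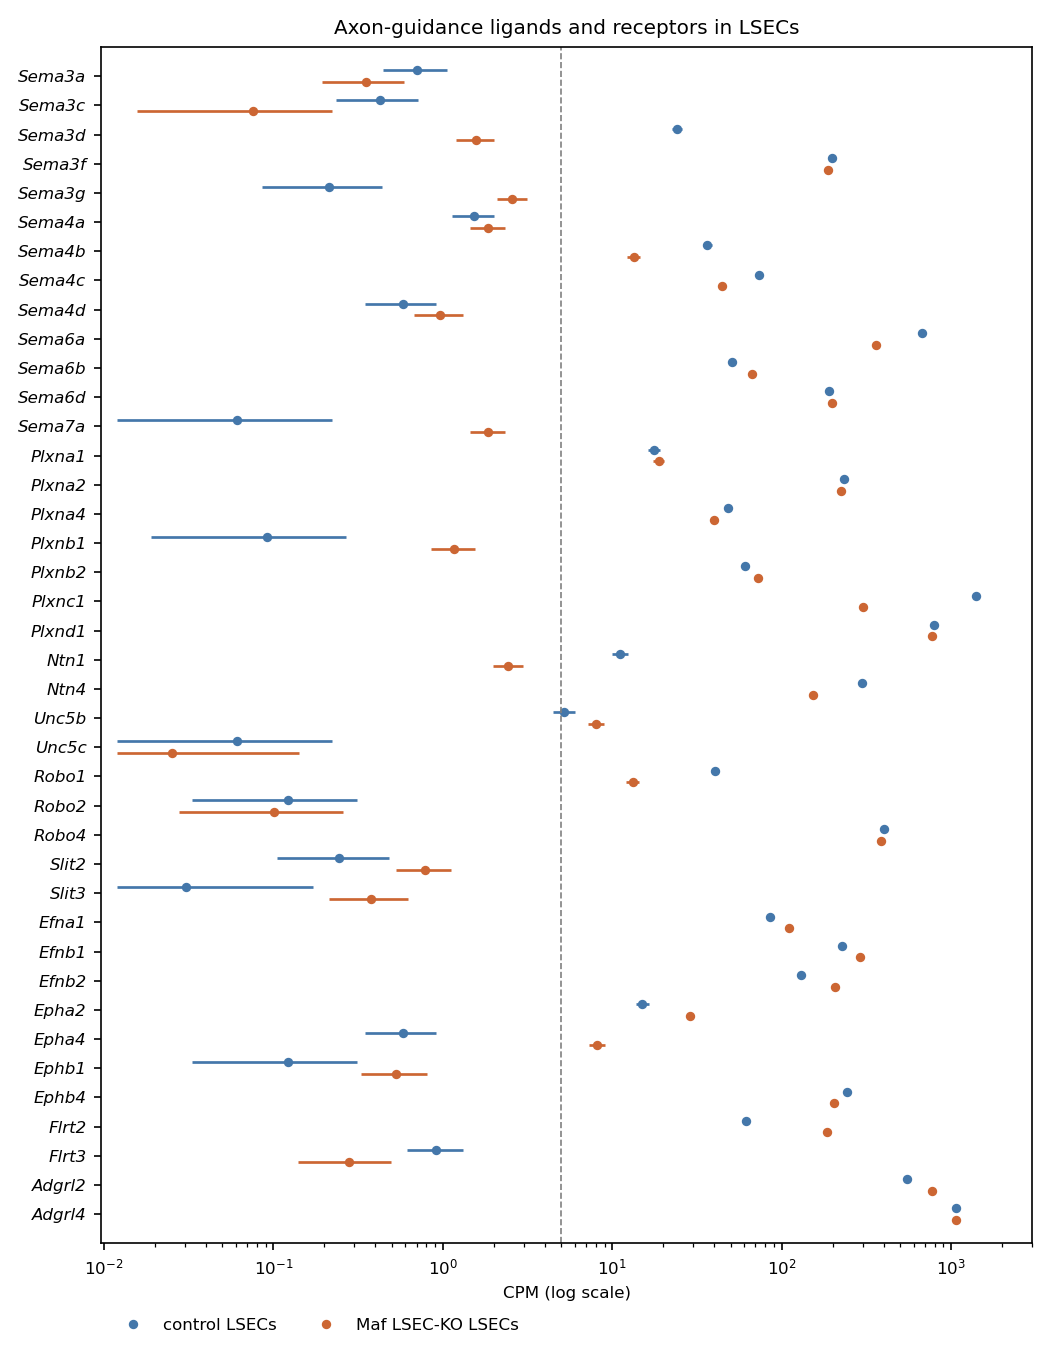
Levels in CPM of all 40 members in control LSECs (blue) and Maf LSEC-KO LSECs (orange) on a log axis, with bars for 95% counting intervals, shortened at the left edge for 3 members of 1 or 2 UMIs, and a dashed line at 5 CPM. Plxnc1 stood at 1407 and 302 CPM, Sema3d at 24.1 and 1.57 CPM and Flrt2 at 61.3 and 185 CPM, and 13 members lay left of the line in both libraries.

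Among the plexins, the receptors of semaphorins, Plxnc1 was the member of at least 5 CPM that passed the 2-fold rule. It encodes the receptor of Sema7a and lies at chr10:94790866-94944835 on the minus strand. It had 1407 CPM in control and 302 CPM in Maf LSEC-KO, a log2 ratio of -2.22 (-2.25 to -2.19). Cells were also reduced to 2700 UMIs of all genes, mitochondrial and ribosomal protein genes included, so that total depth was equal. Without these genes the depth was not equal, as they were left out of 37277033 LSEC UMIs in control to leave 32767813, and of 51411569 in Maf LSEC-KO to leave 39601385. With the 406 control and 186 Maf LSEC-KO LSECs below 2700 UMIs left out, 89.7% of 3686 and 42.6% of 3023 LSECs had a Plxnc1 UMI. Without this reduction the shares were 94.6% and 78.6% of all LSECs. In lymphocyte-like cells reduced in the same way, 34.8% of 69 cells in control and 4.17% of 96 cells in Maf LSEC-KO had one, with median depths before the reduction of 6959.5 and 5859.5 UMIs. The control share came with 1040 CPM of Plxnc1 and 1002 CPM of Stab2 in B cell-like cells and 245 CPM of Plxnc1 in T/NK cell-like cells, and the source of this RNA was not tested.

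The other 5 plexins of at least 5 CPM did not pass the 2-fold rule. Plxnd1, the endothelial receptor of Sema3e, had 792 CPM in control and 770 CPM in Maf LSEC-KO, and Plxna2 had 232 and 225 CPM. Plxnb2, a receptor of class 4 semaphorins, had 60.9 and 72.3 CPM, a log2 ratio of 0.25 (0.16 to 0.33). Plxna4 and Plxna1, which act with neuropilins, had log2 ratios of -0.28 and 0.09. Plxnb1 stayed under 5 CPM, with 3 UMIs or 0.0916 CPM in control and 46 UMIs or 1.16 CPM in Maf LSEC-KO. All 7 plexins together had 2558 CPM in control and 1430 CPM in Maf LSEC-KO.

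Among the semaphorin ligands, 7 of 13 were compared. Of these, 2 were lower by the 2-fold rule (beside 4.9% of all genes) and none was higher (beside 11.5%). Sema3d, a secreted class 3 semaphorin (chr5:12383385-12588948), had a control level of 24.1 CPM (22.4 to 25.8), against 1.57 CPM (1.20 to 2.01) in the Maf LSEC-KO library, from 789 and 62 UMIs, a log2 ratio of -3.94 (-4.34 to -3.57). The intervals of both libraries were far apart, and Sema3d had the most negative log2 ratio of the 27 members compared. Sema4b, a membrane-bound class 4 semaphorin, had 36.4 CPM in control and 13.4 CPM in Maf LSEC-KO, a log2 ratio of -1.44 (-1.59 to -1.29).

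Sema6a, a transmembrane semaphorin that binds A-type plexins, had 669 CPM in control and 359 CPM in Maf LSEC-KO, a log2 ratio of -0.90, just short of the 2-fold rule. Sema4c was at 73.3 and 44.4 CPM, a log2 ratio of -0.72. Sema3f, Sema6d and Sema6b differed little, with log2 ratios of -0.08, 0.05 and 0.39. The semaphorins below 5 CPM included Sema7a, the ligand of Plxnc1, which had 2 UMIs in all control LSECs and 73 in Maf LSEC-KO LSECs. Sema3g had 7 and 102 UMIs.

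The netrins, laminin-related secreted ligands, were both lower in Maf LSEC-KO, 1 of them past the 2-fold rule (beside 4.9% of all genes). Ntn1 had 11.1 CPM in control and 2.42 CPM in Maf LSEC-KO, from 364 and 96 UMIs, a log2 ratio of -2.20 (-2.54 to -1.87). Ntn4, a netrin of basement membranes, had 296 and 153 CPM, a log2 ratio of -0.95. Scaling to the UMIs of all genes, by median of ratios or by TMM put Ntn4 and Sema6a past 2-fold as well, and shifted the median of all genes by -0.19, -0.11 and -0.12. Unc5b, an Unc5 receptor of netrins, had 5.22 CPM in control and 8.03 CPM in Maf LSEC-KO.

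Of the Robo receptors, Robo1 was lower and Robo4 was not. Robo1 (chr16:72308306-73046095) had 40.3 CPM in control and 13.2 CPM in Maf LSEC-KO, a log2 ratio of -1.61 (-1.76 to -1.46). Robo4, the Robo receptor of vascular endothelium, had 403 and 388 CPM, a log2 ratio of -0.06. The Slit ligands of these receptors were near absence in LSECs of both libraries, with 8 and 31 UMIs of Slit2 and 1 and 15 UMIs of Slit3. Robo2 had 4 UMIs in each library.

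The ephrins were above control and none of them reached 2-fold. Efnb2, which marks arterial endothelium, had 130 CPM in control and 205 CPM in Maf LSEC-KO, a log2 ratio of 0.66 (0.61 to 0.71). Efnb1 had 228 and 288 CPM and Efna1 85.7 and 111 CPM, with log2 ratios of 0.34 and 0.37. All 3 ratios stayed above 0 under every alternative run, with a lowest value of 0.15 for Efnb1.

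The Eph receptors went different ways. Epha4, a receptor that binds ephrins of both classes, was barely detected in control, with 19 UMIs or 0.580 CPM (0.349 to 0.905), and reached 321 UMIs or 8.11 CPM (7.24 to 9.04) in the other library, a log2 ratio of 3.81 (3.14 to 4.56). Epha2 had 15.0 and 28.7 CPM, a log2 ratio of 0.93, and passed 2-fold when each cell was weighted equally or reduced to 2700 UMIs. Ephb4, the receptor of Efnb2 on veins, had 242 and 205 CPM, a log2 ratio of -0.24. Ephb1 stayed under 5 CPM.

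Flrt2, a cell-surface ligand of Unc5 receptors and latrophilins (chr12:95692226-95785215), was higher in Maf LSEC-KO. Its level was 61.3 CPM (58.6 to 64.0) in control, against 185 CPM (181 to 190) in the Maf LSEC-KO library. This is a log2 ratio of 1.60 (1.53 to 1.67). At 2700 UMIs per cell 10.9% of control and 25.7% of Maf LSEC-KO LSECs had a Flrt2 UMI, and 1.45% and 2.08% of lymphocyte-like cells. Without the reduction the LSEC shares were 21.7% and 52.0%. Flrt3, its relative, had 30 and 11 UMIs. Of the adhesion receptors, Adgrl2, a latrophilin, had 552 and 771 CPM, and Adgrl4, an endothelial receptor of the same class, 1074 and 1071 CPM.

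Cells with UMIs of proliferation genes were found more often in Maf LSEC-KO, with UMIs of at least 2 of 8 such genes in 916 of 3209 LSECs and in 116 of 4092 in control. Their median depth was 20595 UMIs in Maf LSEC-KO and 14702 in control, against 10611 and 7985 in cells with none. These shares were not taken at equal depth. Comparisons by these genes were added after the values were seen. The same members passed the rule in both directions among cells with no such UMI, 2 higher (beside 8.35% of all genes) and 5 lower (beside 4.28%). In these cells Flrt2 had 60.8 CPM in control and 212 CPM in Maf LSEC-KO, and Plxnc1 had 1421 and 371 CPM. Within Maf LSEC-KO, Ntn4 was at 98.0 CPM in cycling and 200 CPM in non-cycling LSECs and Epha4 at 4.36 and 10.5 CPM, the 2 members at least 2-fold lower in cycling cells (beside 0.798% of all genes). None was 2-fold higher, beside 4.96%. In control, Flrt2 was the member at least 2-fold lower in cycling cells, at 30.3 and 60.8 CPM (beside 1.79% of all genes), and none was higher (beside 7.57%).

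A comparison inside the Maf LSEC-KO library asked how the members stood in LSECs that still held Maf transcripts. It is free of the difference between libraries, although cells with more Maf UMIs also had more macrophage RNA. The Maf groups also differed in zonal position (described below) and in cells with UMIs of proliferation genes. Of the Maf LSEC-KO LSECs, 2542 had no Maf UMI and 328 had at least 2. Lower without Maf UMIs by at least 2-fold were 3 of 26 members compared, Sema3d, Plxnc1 and Robo1, beside 2.17% of all genes, and none was 2-fold higher, beside 1.26%. Sema3d had 4 UMIs, 0.132 CPM, in cells without a Maf UMI and 56 UMIs, 13.7 CPM, in those with at least 2. Plxnc1 had 253 and 687 CPM, a log2 ratio of -1.44, and Robo1 11.5 and 28.2 CPM, a log2 ratio of -1.30. Flrt2 was at 191 and 152 CPM. Cells with at least 2 Maf UMIs were 14.5% of the pericentral and 8.02% of the periportal group. Plxnc1 without and with them had 266 and 1062 CPM pericentrally, 245 and 485 CPM between, and 256 and 561 CPM periportally. UMIs of at least 2 proliferation genes were in 737 of 2542 cells without a Maf UMI. They were in 42 of 129 cells with 2 to 4, 3 of 40 with 5 to 9 and 14 of 159 with 10 or more. The part of zone and proliferation was not tested. Set against control LSECs, a comparison added after the values were seen, the cells with at least 2 Maf UMIs had 3 members at least 2-fold higher, Flrt2, Epha4 and Epha2 (beside 7.88% of all genes), and 2 lower, Plxnc1 and Ntn1 (beside 2.28%).

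The cells were divided further by Maf UMIs, in steps chosen after the values were seen. The 159 cells with 10 or more had 2235 CPM of Maf, 1174 CPM of Stab2, a median of 10600 UMIs and 270 CPM of the macrophage list, against 124 CPM of Stab2, a median of 13637.5 UMIs and 101 CPM of the macrophage list in cells without a Maf UMI. In them Plxnc1 had 1145 CPM, Sema3d 31.1 CPM, Robo1 51.8 CPM and Sema4b 34.6 CPM, beside 1407, 24.1, 40.3 and 36.4 CPM in all control LSECs. Ntn4 had 400 CPM there and 140 CPM in cells without a Maf UMI. Flrt2 had 101 CPM in them, between the 191 CPM of cells without a Maf UMI and the 61.3 CPM of control, and Epha4 had 2 UMIs, 1.15 CPM. Ntn1 stood apart, with no UMI in these cells, which allows up to 1.73 CPM, and 11.1 CPM in control. The 40 cells with 5 to 9 Maf UMIs had 618 CPM of Plxnc1 (528 to 720) and 705 CPM of Stab2, at a median of 6132.5 UMIs, and 1 UMI of Sema3d. The 129 cells with 2 to 4 Maf UMIs had 312 CPM of Plxnc1 and 1 UMI of Sema3d. Macrophage-like cells of this library had 1535 CPM of Maf, 59.5 CPM of Plxnc1 and 0.882 CPM of Sema3d. The part of macrophage RNA in the grouping was not tested.

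**Figure D2:**
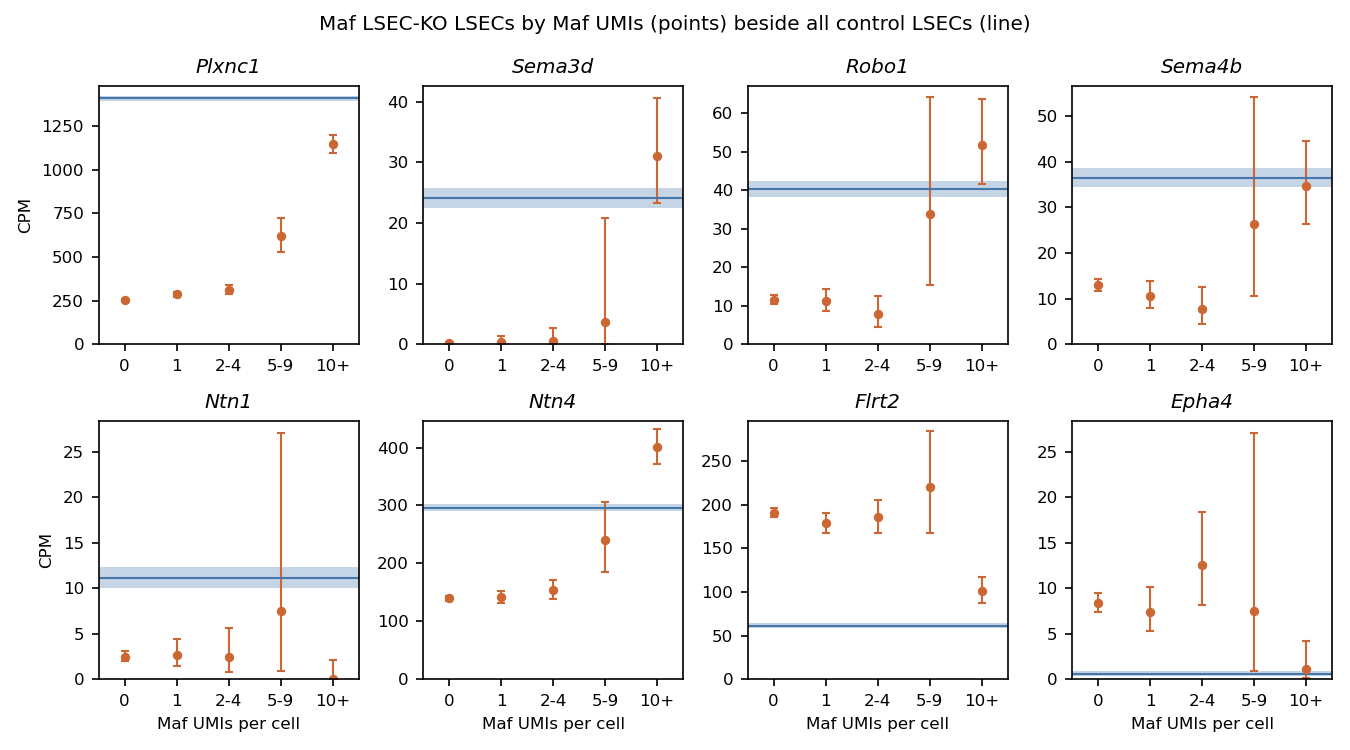
Levels in CPM of 8 members in Maf LSEC-KO LSECs grouped by their Maf UMIs (points, with 95% counting intervals) beside all control LSECs (blue line and band for the same interval). Plxnc1 was at 253 without Maf UMIs and 1145 with 10 or more, near the control line at 1407, whereas Ntn1 had no UMI in the last group.

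Zonation along the sinusoid was read from 12 landmark genes that are not members, 6 pericentral (such as Wnt2, Rspo3 and Kit) and 6 periportal (such as Dll4 and Ltbp4), and the cells of each library were ordered from the central vein to the portal side. In control, the outer groups, each of about 25% of the cells, held 1016 pericentral and 1015 periportal LSECs with median depths of 8697 and 5986 UMIs. At least 2-fold higher pericentrally were Sema3d and Ntn1, 2 of 26 members compared (beside 2.67% of all genes), and periportally Ntn4, Efnb1 and Efnb2, 3 members (beside 1.8%). Sema3d had 60.3 CPM pericentrally and 4.39 CPM periportally, a log2 ratio of 3.78 (3.23 to 4.38), and Ntn1 18.3 and 5.02 CPM. Efnb2 had 44.2 and 256 CPM, Ntn4 114 and 582 CPM, and Efnb1 126 and 432 CPM, so the ephrin-B ligands stood on the side of the portal vessels. Plxnc1, at 1658 and 1005 CPM, and Ephb4, with a log2 ratio of 0.60, leaned to the pericentral side without reaching 2-fold, and Efna1 with -0.99 to the periportal side. Control LSECs included the Vwf-negative cells of a cluster of 516 led by Rspo3, a pericentral landmark, and of one of 234 led by Igfbp5. Selp, Wnt9b and Vwf were among the leading genes of the former. Sema3d, Ntn1, Ntn4 and Efnb1 were also at least 2-fold higher in Vwf-positive than in Vwf-negative control cells, whereas Efnb2 had 168 and 130 CPM. The part of larger-vessel cells without a Vwf UMI in the zonal ratios was not tested in either library.

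In Maf LSEC-KO the order was read with fewer steps, because 1359 cells shared the top of the score and 784 formed the pericentral group, and 76 cells had no landmark UMI. Cells at the top had no UMI of a pericentral landmark, and the paper reports Wnt2 and Rspo3 as strongly downregulated in these LSECs. Median depths were 14877.5 UMIs pericentrally and 10675 periportally. At least 2-fold higher periportally were Ntn4, Efnb2 and Epha4, 3 of 25 members compared (beside 0.589% of all genes), and pericentrally Unc5b (beside 1.24%). Unc5b had 11.4 CPM pericentrally and 5.53 CPM periportally, a log2 ratio of 1.04, which became -0.12 with landmarks found by correlation. Those landmarks gave Sema3d, Plxnc1 and Flrt2 as pericentral in its place. Efnb2 had 112 CPM pericentrally and 273 CPM periportally, a log2 ratio of -1.28 (-1.37 to -1.18) where control had -2.53 (-2.70 to -2.37). Ntn4 had 75.1 and 209 CPM, a log2 ratio of -1.48, and -2.35 in control. Efnb1 had 184 and 368 CPM. Epha4 had 4.31 and 12.7 CPM, and had at most 1.41 CPM in the zonal groups of control. The differences between the libraries in these ratios were not tested. Because the outer groups were not formed alike in both libraries, these ratios are not a like-for-like measure of zonation. Sema3d had 4.70 CPM in the pericentral group and 0.321 CPM in the periportal group. Within the pericentral group 49 UMIs of Sema3d came from the 114 cells with at least 2 Maf UMIs and none from the 597 without, which allows up to 0.376 CPM there.

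**Figure D3:**
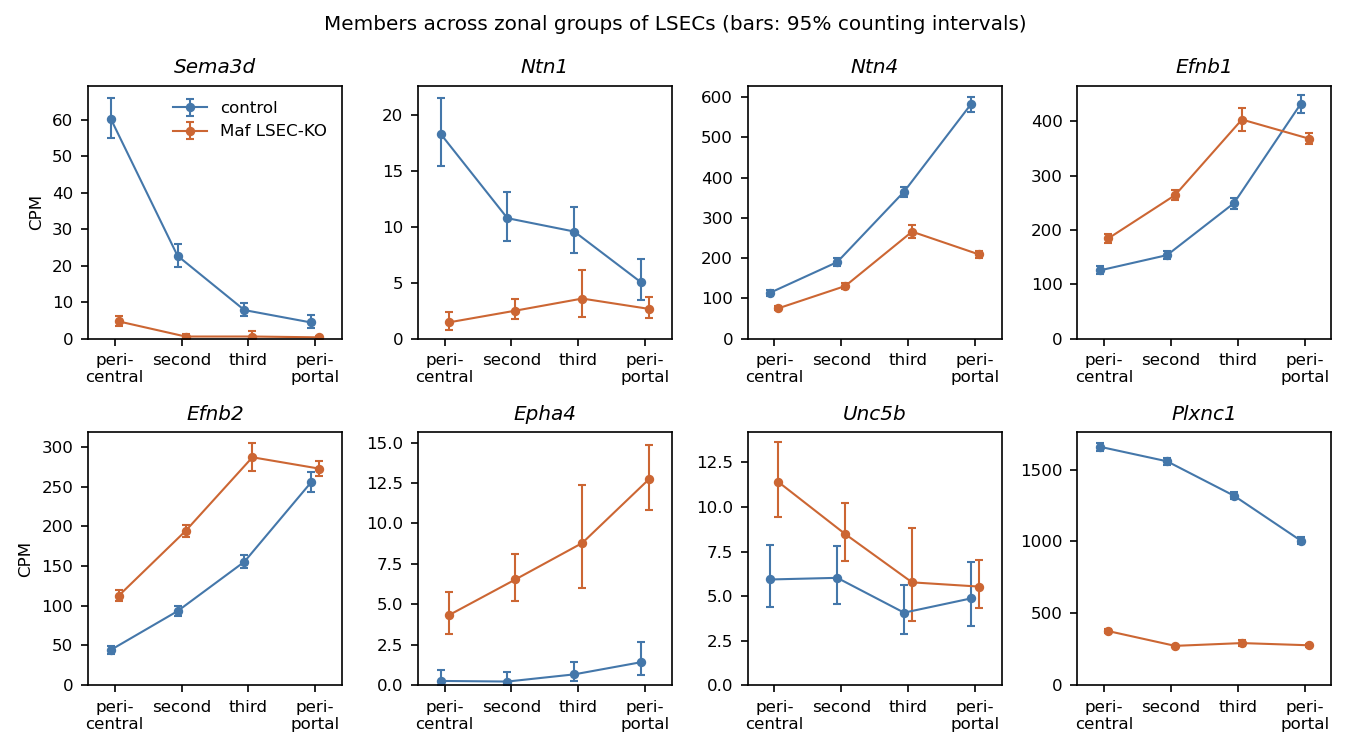
Levels in CPM of 8 members in zonal groups of LSECs from pericentral to periportal, in control (blue) and Maf LSEC-KO (orange), with 95% counting intervals. Sema3d and Ntn1 declined from the pericentral to the periportal side in control and had at most 4.70 and 3.57 CPM in Maf LSEC-KO. Efnb2 and Ntn4 climbed towards the portal side in control. In Maf LSEC-KO both were higher periportally than pericentrally. Ntn4 there peaked at 266 CPM (249 to 283) in the group before the periportal group, which had 209 CPM (201 to 217). Efnb2 had 287 CPM (270 to 305) and 273 CPM (264 to 282) in these groups.

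Vwf is known as a marker of endothelium in vessels larger than sinusoids. Endothelial cells with a Vwf UMI numbered 161 in control and 1037 in Maf LSEC-KO, with median depths of 11733 and 15265 UMIs. In Maf LSEC-KO they made up 25% of 1428 cells, 16.3% of 1263 and 21.6% of 978 in the largest endothelial clusters and 71.0% of 386 in a cluster led by Gja5, so they need not be the same kind of cell in both libraries. In control, 7 of 28 members compared were at least 2-fold higher in them than in Vwf-negative LSECs (beside 5.55% of all genes): Sema3d, Ntn1, Ntn4, Slit2, Efnb1, Epha4 and Flrt2. Sema4b and Plxnc1 were lower (beside 2.59%). Epha4 had 26.6 CPM in Vwf-positive and 0.580 CPM in Vwf-negative cells, and Slit2, a Robo ligand, 13.9 and 0.244 CPM. Flrt2 had 232 and 61.3 CPM and Plxnc1 692 and 1407 CPM. 

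In Maf LSEC-KO 4 of 27 members were at least 2-fold higher in Vwf-positive cells, Sema3g, Ntn4, Slit2 and Epha4 (beside 1.2%), and none lower (beside 0.242%). Flrt2 had 238 CPM in Vwf-positive and 185 CPM in Vwf-negative cells, and Plxnc1 213 and 302 CPM. Between the Vwf-positive cells of both libraries, a comparison added after the values were seen, Flrt2 had 232 CPM in control and 238 CPM in Maf LSEC-KO, and Epha4 26.6 and 23.8 CPM. By contrast Sema3d had 59.6 and 0.575 CPM, Ntn1 31.8 and 4.99 CPM, Plxnc1 692 and 213 CPM, Ntn4 693 and 341 CPM and Robo1 40.5 and 16.8 CPM, the 5 members at least 2-fold lower in Maf LSEC-KO (beside 5.87% of all genes). Sema3g was higher, from 1.16 to 8.50 CPM (beside 9%). Its control value lay under the 1.74 CPM that 3 UMIs would make in those cells.

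Other cells of the same libraries held further members. Sema4d and Sema4a, semaphorins of leukocytes, had 137 and 112 CPM in neutrophil or monocyte-like and 87.3 CPM each in T/NK cell-like cells of Maf LSEC-KO, and 0.960 and 1.84 CPM in its LSECs. Macrophage-like cells of Maf LSEC-KO had 312 CPM of Sema6d, 282 CPM of Plxnb2 and 48.5 CPM of Plxna1, beside 198, 72.3 and 18.8 CPM in its LSECs. The 37 cholangiocyte-like cells, found in Maf LSEC-KO, had 174 CPM of Sema3c, 111 CPM of Plxnb1 and 68.7 CPM of Flrt3. These populations were small, and control lymphocyte-like cells carried 782 CPM of Stab2, so LSEC transcripts were present in them.

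An endothelial cluster of 190 cells in Maf LSEC-KO was led by Dcn, Rspo3 and Ccl21a and one of 149 cells in control by Spp1 and Dcn, and both were left out of the LSECs because markers of another cell type stood among their leading genes. The Maf LSEC-KO cluster had 67.3 CPM of Sema3d, 72.7 CPM of Ntn1, 47.6 CPM of Epha4, 105 CPM of Plxna4 and 24.2 CPM of Robo2, so Sema3d and Ntn1 were not absent from this library. With the Vwf-negative cells of both clusters kept, LSECs numbered 4240 in control and 3253 in Maf LSEC-KO. The same 2 members were then higher and the same 5 lower. In the Maf LSEC-KO cluster 77.3% of cells had a Vwf UMI and stayed out, so this run does not show the calls with the whole cluster included. In control LSECs all 14 UMIs of Sema3c came from 1 cell, which also held UMIs of at least 2 stellate cell genes.

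**Figure D4:**
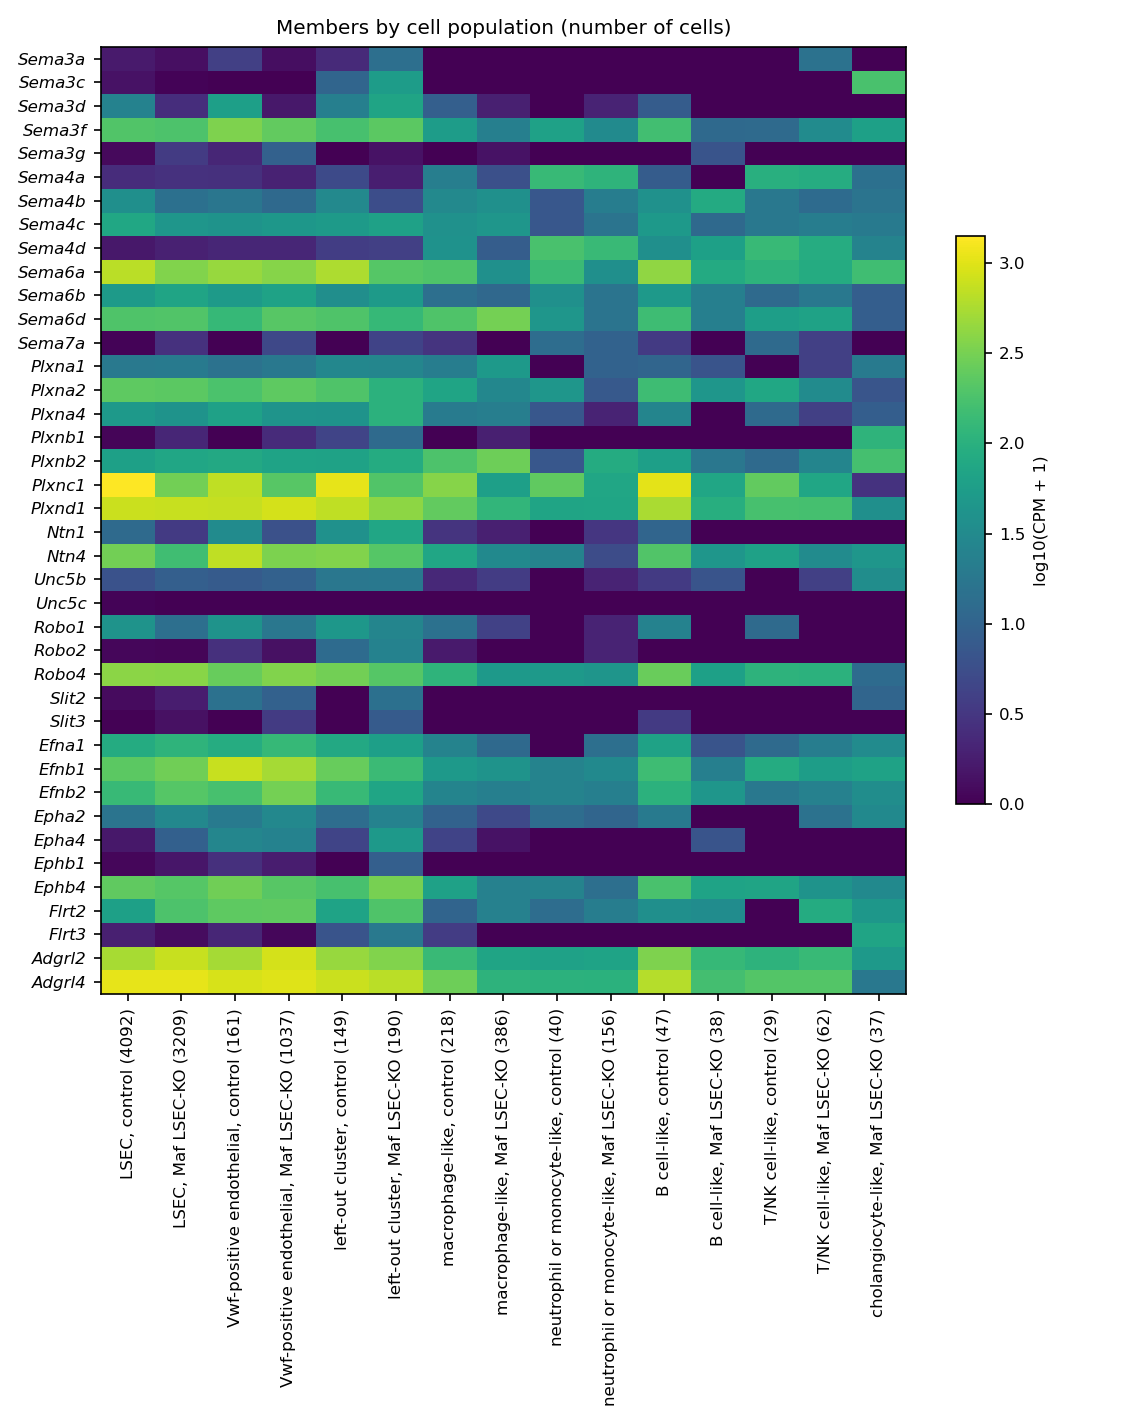
Heat map of all 40 members, as log10 of CPM plus 1, over the cell populations of each library, with cell numbers in brackets. Sema4a and Sema4d were brightest in leukocyte columns and Sema3c in the cholangiocyte-like column at 174 CPM, and Plxnc1 was at 1407 CPM in control LSECs.

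Guidance genes outside the 40 were described in the same LSECs from a list of 47. Of these, 8 reached 5 CPM, 1 was at least 2-fold higher (beside 11.5% of all genes) and 3 were lower (beside 4.9%), with a median log2 ratio of -0.61, beside 0.14 for all genes. Flrt1, a relative of Flrt2, had 53.1 CPM in control and 4.14 CPM in Maf LSEC-KO, so the Flrt ligands differed in opposite directions. Neo1, the netrin receptor neogenin, had 7.69 and 0.960 CPM, and Nrp2, a co-receptor of class 3 semaphorins, 546 and 264 CPM. Nrp1, their other co-receptor, had 2351 and 1947 CPM, a log2 ratio of -0.27. The latrophilin-binding teneurin Tenm1 had 11.1 and 47.0 CPM, and Unc5a, another Unc5 receptor, 24.6 and 12.8 CPM.

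Of 45 intracellular mediators of guidance signals, 37 reached 5 CPM, 4 were at least 2-fold higher (beside 11.5% of all genes) and 1 was lower (beside 4.9%), with a median log2 ratio of -0.04, so the counts did not exceed the background. The actin-binding Ablim1 had 0.824 CPM in control and 19.0 CPM in Maf LSEC-KO, and Srgap3, which acts downstream of Robo receptors, 0.336 and 6.09 CPM. The adaptor Nck2 had 2.35 and 6.41 CPM. The cofilin kinase Limk1 was lower, at 29.7 and 11.8 CPM.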

How the data were processed

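Single-cell RNA-seq libraries of CD146-sorted cells from livers digested by collagenase were available for 1 control and 1 Maf LSEC-KO pool. The authors deposited UMI counts per gene and cell, made with Cell Ranger 6.0.2 on mm10 per the labels and file headers, and the labels also name Seurat 5.0.1. Barcodes under 1500 UMIs or 750 genes were dropped and the rest clustered per library (Seurat 5.3.0, 16 and 20 principal components, resolution 0.3). Endothelial clusters had UMIs of at least 7 of 14 endothelial genes, the first listed one included, in at least 50% of cells. No listed marker of another cell type was present in more than 50% of their cells. Scrublet's automatic limit marked no cell, so the top-scoring 225 and 308 cells were removed at the expected rate. The subtraction of empty droplets was not repeated. Clusters with listed markers of another type among their leading genes, at a raised share of cells, were left out by a rule set after seeing the data. In control, clusters led by Mup20 (591 cells, median 3338 UMIs) and Hbb-bs (454 cells, median 3207 UMIs) passed it and were kept. So were clusters led by Hbb-bt (1263 cells) and Ppbp (75 cells) in Maf LSEC-KO. The part of these clusters in the member values was not tested. For CPM, UMIs were summed over the LSECs, leaving out genes of mitochondria and ribosomal proteins (32767813 UMIs used in control, 39601385 in Maf LSEC-KO), and scaled to a total of 1000000. Ratios (exact conditional) and levels (exact Poisson) carry 95% intervals, and shares of cells with a UMI of a member were also drawn at equal total depth. Members, lists and landmarks were chosen with earlier results of these data known. Values are given in full for members with at least 50 CPM or with at least 5 CPM and 2-fold, and for the 5 largest and 5 smallest ratios of the other lists, of which 1 gene is not reported here. Values of other members and of Nrp1 were named where a comparison turned on them. Ratio and thinning code was tested on simulated data. Barcode and feature files served as names only.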

Additional observations from a re-analysis of the deposited data

How the results depend on the processing

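No paired analysis was possible because each group has 1 library and the labels carry no replicate numbers. Each result was recomputed with other scalings, floors, depths, cell filters, doublet handling, zonal landmarks and Maf or Vwf limits. Of 66 counts of members, 56 stayed within 1.5 times the reported one, and of 345 ratios of Maf LSEC-KO over control for 23 members 226 moved by no more than their counting interval, 119 moved further, and none past 2-fold changed sign. Among the zonal ratios, that of Unc5b in Maf LSEC-KO went from 1.04 to -0.12 with landmarks found by correlation. A floor of 20 CPM gave 1 member higher in Maf LSEC-KO LSECs, without Epha4, and 4 lower, without Ntn1, and no floor gave 8 higher and 8 lower, adding members of few UMIs. Members higher in pericentral Maf LSEC-KO LSECs numbered 0 with landmarks divided by their mean, and 3 both with landmarks found by correlation and at 2700 UMIs per cell. Between Maf LSEC-KO LSECs without and with Maf UMIs, a limit of 5 Maf UMIs gave 1 member higher and 5 lower, and 2700 UMIs per cell gave 1 higher and 7 lower. Shares of all genes called are not given for the settings of this section, so these counts were not set against a background. The cause of these changes was not tested. Keeping the clusters left out for markers of other cell types (still without Vwf-positive cells) and leaving out proliferating cells were added after seeing the data. Both gave 2 higher and 5 lower. Depth limits the members under 5 CPM and the small populations.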
